A study of Rattus norvegicus with 6 samples.

Results

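Chylomicrons carry dietary fat out of the intestine, and 10 genes that encode their apolipoproteins or the proteins that assemble and export them were followed in rat ileum after gut bypass surgery. They are Apoa1, Apoa4, Apoa5, Apob, Apoc2, Apoc3, Apoe, Mttp, Apobec1 and Sar1b, and all 10 were measured, each by 1 row of the array that carried its symbol alone, among 14506 genes tested. The rule that defines them names the genes and uses no measured value, but they were chosen with earlier results of these data known. The tissue was the ileum, where the small intestine ends, of Zucker fa/fa rats, an obese strain that lacks a working leptin receptor, so the sham rats were obese as well. The labels give an age of 20 weeks at surgery and tissue collection 14 days later. In 3 rats a duodenum-jejunum bypass (DJB) sent food around the duodenum and upper jejunum, and bile and pancreatic juice rejoined the food further down. In the other 3 rats the gut was opened and rejoined so that food kept its normal course (sham). Each rat gave 1 Affymetrix whole-transcript array, and levels are log2 values after RMA, the authors' normalisation.

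The enterocyte packs triglyceride into a particle around a single molecule of apolipoprotein B. The microsomal transfer protein, encoded by Mttp, loads lipid onto it in the endoplasmic reticulum, and COPII vesicles that need the GTPase SAR1B carry the particle to the Golgi. APOBEC1 edits the Apob mRNA so that the intestine makes the short form of the protein. Smaller apolipoproteins (A-I, A-IV, A-V, C-II, C-III and E) sit on the surface, move between particles, and govern lipase activity and uptake by the liver.

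After the bypass, the ileum carried less Apoc3 transcript, by 2.81-fold, and Apoc3 was the only 1 of the 10 genes to pass the test over all genes. Apoa4 was next with a level 1.88-fold lower, just outside the threshold. The genes of the particle's core and export, Apob, Mttp, Apobec1 and Sar1b, differed by at most 1.29-fold, and the level of Apoa1 differed by -0.09 on the log2 scale. A gene is said to have risen or fallen where its limma adjusted p over the 14506 genes was under 0.05. By that rule 1 of the 10 genes fell, where 0.379% of all genes tested fell, and 0 rose, where 0.393% rose. At an unadjusted p under 0.05, 5 of the 10 were lower (4.45% of all genes) and 0 were higher (9.82% of all genes). The mean after DJB lay under the sham mean in 9 of the 10 genes, against 38.3% of all genes tested, and the median difference was -0.29 against 0.05 for all genes tested. In whole tissue, fewer cells of a type and less RNA per cell cannot be told apart.

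**Figure D1:**
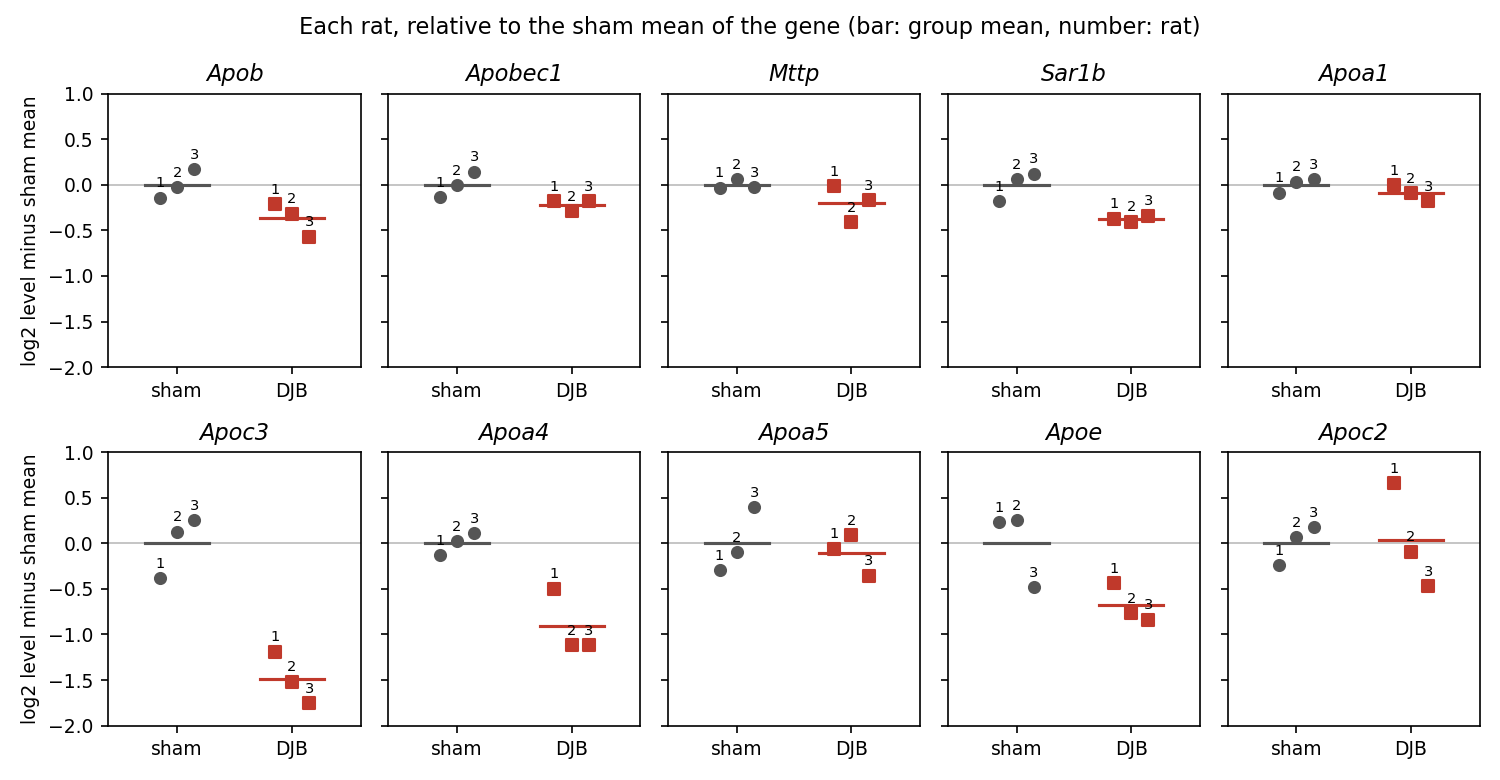
Level of each of the 10 genes in each rat, as the log2 value minus the mean of the 3 sham rats for that gene (y axis), with sham as grey circles, DJB as red squares, a bar at each group mean and the rat's number above its point. The DJB points of Apoc3 lie at least 0.81 below its lowest sham point, while those of Apoc2 spread to both sides of the sham rats.

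The labels give no batch, and the 6 arrays had medians over all rows of 6.08 to 6.19, the highest on DJB 1. On that array the median gene lay 0.12 above its sham mean, against 0.011 on DJB 2 and 0.0066 on DJB 3, and DJB 1 was the highest of the DJB arrays for 57.6% of all genes tested and for 8 of the 10 followed here. Among the sham arrays, sham 1 was the lowest for 9 of the 10 genes, against 35.1% of all genes. The 10 markers of enterocytes fixed for this comparison had a mean level of 12.24 to 12.53 in sham and 12.31 to 12.45 after DJB, and 0 of them passed the limma test (1 was higher and 0 were lower at an unadjusted p under 0.05, against 9.82% and 4.45% of all genes). The 5 measured markers of the ileum had a mean level of 10.05 to 10.82 in sham and 10.77 to 11.28 after DJB, ranges that overlap. In the mean 4 were higher and 1 was lower. At an unadjusted p under 0.05, 4 were higher (9.82% of all genes) and 1 was lower (4.45% of all genes), and 1 of the 5 rose (0.393% of all genes). Among them Slc10a2, the ileal bile acid transporter, rose by 1.73 ± 0.22 (SE) from a level of 10.40, while Cubn, a receptor of the brush border, differed by -0.92 ± 0.31 and did not pass. Markers of the upper small intestine (7 measured) had a mean level of 7.59 to 7.68 in sham and 6.83 to 7.15 after DJB. Of them 2 fell (0.379% of all genes), Slc46a1, for folate uptake, and S100g, for calcium binding. The Slc46a1 call ended without sham 3 or DJB 2 (limma adjusted p of up to 0.0576). At an unadjusted p under 0.05, 5 were lower (4.45% of all genes) and 1 was higher (9.82% of all genes). Groups did not overlap for 5 with DJB lower (6.56% of all genes) and for 1 with DJB higher (14.5% of all genes). Of the 7, 5 were lower and 2 were higher in the mean, the iron exporter gene Slc40a1 by 0.49 with groups that did not overlap (limma adjusted p = 0.0530) and Cybrd1 by 0.18, both named after their values were seen. The mean of this list was thus lower after DJB, as were Apoc3 and Apoa4, with members in both directions, and its part in those results was not tested. All 6 smooth muscle markers were higher in the mean, as were 8956 of the 14506 genes tested. Their list means were 10.47 to 10.99 in sham and 10.83 to 11.09 after DJB. Goblet cell markers (4 measured, 3 lower and 1 higher) had list means of 11.57 to 11.62 in sham and 11.42 to 11.49 after DJB. In these lists, and in those of glia and adipocytes, 0 genes passed the limma test, and their part was not tested.

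The core of the particle came first. Apob, which encodes the structural protein of the chylomicron, had levels of 12.09, 12.20 and 12.40 in sham 1 to 3 and of 12.02, 11.91 and 11.66 in DJB 1 to 3. Its groups did not overlap, but the highest DJB rat lay 0.07 below the lowest sham rat. The difference of -0.37 ± 0.13 (SE, 95% interval -0.65 to -0.08) did not pass over all genes (limma adjusted p = 0.241). Groups that did not overlap, with DJB lower, were found for 5 of the 10 genes, namely Apob, Apoc3, Apoa4, Apobec1 and Sar1b, and for 6.56% of all genes tested, and with DJB higher for 0 of the 10 and for 14.5% of all genes. Apobec1, the editing enzyme of Apob mRNA, ranged from 8.32 to 8.60 in sham and from 8.17 to 8.28 after DJB, a difference of -0.22 ± 0.10 (SE, limma adjusted p = 0.386).

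Mttp, the lipid-loading protein, was measured at 12.15, 12.24 and 12.16 in the sham rats and at 12.17, 11.78 and 12.02 in the DJB rats. DJB 1 lay within the sham range and the other DJB rats below it. The difference was -0.20 ± 0.12 (SE), its 95% interval of -0.46 to 0.06 spans 0, and it did not pass (limma adjusted p = 0.479). Apob and Mttp, whose products act together in lipid loading, differed from each other in their change by -0.17 ± 0.17 (SE, n = 3 per group, exact two-sided permutation p = 0.4).

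Sar1b, the GTPase that starts the COPII coat on the endoplasmic reticulum, had levels of 10.95, 11.19 and 11.25 in sham and of 10.76, 10.72 and 10.79 after DJB. The DJB rats lay close together (SD 0.03), all below the sham rats. The difference was -0.37 ± 0.11 (SE, 95% interval -0.61 to -0.13, limma adjusted p = 0.171). Its paralogue Sar1a, chosen for comparison after its values were seen, lay in the other direction, from 9.36 to 9.44 in sham and from 9.55 to 9.77 after DJB, a difference of 0.25 ± 0.10 (SE, limma adjusted p = 0.283). Neither paralogue passed, and the difference between their changes was not tested.

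**Figure D2:**
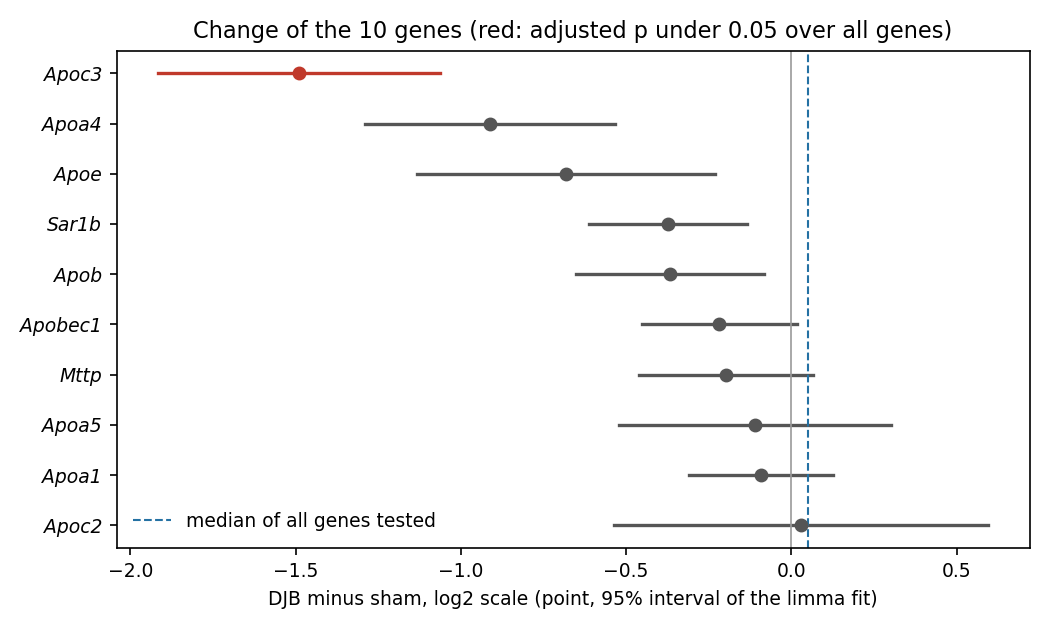
Difference of each of the 10 genes between 3 DJB and 3 sham rats on the log2 scale (x axis), with the 95% interval of the limma fit as a line and the median of all genes tested as a dashed line. Apoc3 (red) passed the adjusted threshold, and the intervals of Apoa4, Apoe, Sar1b and Apob also lie below 0, without passing after adjustment over all genes.

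Among the surface apolipoproteins, Apoc3 encodes an inhibitor of lipoprotein lipase and of the uptake of remnant particles by the liver. Its levels were 10.36, 10.87 and 10.99 in sham 1 to 3 and 9.55, 9.22 and 8.98 in DJB 1 to 3. The groups were far apart, with a gap larger than the range of either group. Apoc3 fell by 1.49 ± 0.19 (SE, 95% interval -1.92 to -1.06, limma adjusted p = 0.0102). The exact permutation p (two-sided, 3 against 3 rats) was 0.1, the smallest this design allows. The difference lay between -1.68 and -1.36 whichever array was left out, but the call ended without sham 2 (limma adjusted p = 0.0564), without sham 3 (limma adjusted p = 0.0564) and without DJB 2 (limma adjusted p = 0.0605).

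Apoa4 encodes an apolipoprotein that the intestine secretes during fat absorption. It was measured at 11.73, 11.89 and 11.98 in the sham rats and at 11.37, 10.75 and 10.75 in the DJB rats. All DJB rats lay below all sham rats, and DJB 1 lay nearer to sham than the other two. The difference was -0.91 ± 0.17 (SE, 95% interval -1.29 to -0.53), and its limma adjusted p of 0.0511 missed the threshold. Without DJB 1 the difference was -1.12 and passed (limma adjusted p = 0.00443), and it also passed with each array centred on its median (limma adjusted p = 0.0279), while leaving out other arrays gave an adjusted p of up to 0.192. Apoa4 did not pass with the replicate number as a block (limma adjusted p = 0.140).

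Apoa1, the main protein of high-density lipoprotein, had levels from 13.41 to 13.56 in sham and from 13.32 to 13.50 after DJB. The groups overlapped, and the difference was -0.09 ± 0.10 (SE, 95% interval -0.31 to 0.13, limma adjusted p = 0.721). The highest value of any row lay between 13.85 and 14.10 on the 6 arrays, so a difference in Apoa1 may be understated near the top of the scale. Apoa5, which helps lipoprotein lipase act and is known as a liver gene, ranged from 6.16 to 6.85 in sham and from 6.10 to 6.54 after DJB. The groups overlapped with a difference of -0.11 ± 0.18 (SE, 95% interval -0.52 to 0.30), at levels close to 6.11, the median of all rows, where array values understate change. That sign turned when sham 3 (0.087) or DJB 3 (0.014) was left out. The 10 liver markers, Alb among them, had a mean level of 4.69 to 5.09 in sham and 4.58 to 4.77 after DJB, list means below that median, but Alb reached 6.84 in sham 2, and Tf lay above the median at 7.05 in sham and 7.15 after DJB. Of these liver markers 0 passed the limma test. With an unadjusted p under 0.05, 2 were lower (4.45% of all genes) and 0 were higher (9.82% of all genes). Alb differed by -1.20 ± 0.53 (SE, limma adjusted p = 0.350).

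In the RefSeq gene table of the assembly GRCr8, Apoa1, Apoc3, Apoa4 and Apoa5 lie side by side in that order on chromosome 8, with no other protein-coding gene between them. The measured differences were larger for the inner pair, Apoc3 and Apoa4, than for the outer pair, Apoa1 near the top of the scale and Apoa5 near the median of all rows, where changes are understated, so that the contrasts below may be overstated. The changes of these 4 genes were compared within each array, with 7 pairs tested in all, Apob with Mttp included. Apoc3 differed from Apoa1 in its change by -1.40 ± 0.19 (SE) and from Apoa5 by -1.38 ± 0.18. Apoa4 differed from Apoa1 by -0.82 ± 0.16 and from Apoa5 by -0.80 ± 0.26, and Apoc3 differed from Apoa4 by -0.58 ± 0.15. In each of these 5 pairs the 3 DJB arrays lay wholly below the 3 sham arrays, which gave an exact two-sided permutation p of 0.1, the smallest possible with 3 against 3, and 0.14 after Benjamini-Hochberg adjustment over the 7 pairs. Apoa5 and Apoa1 differed in their change by -0.02 ± 0.20 (exact permutation p = 0.9). Of the measured genes on either side, all chosen after their values were seen, Sidt2 differed by -0.38 ± 0.13, Pafah1b2 by 0.29 ± 0.09 and Bud13 by -0.10 ± 0.10, and none of these 3 passed (limma adjusted p of at least 0.201).

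**Figure D3:**
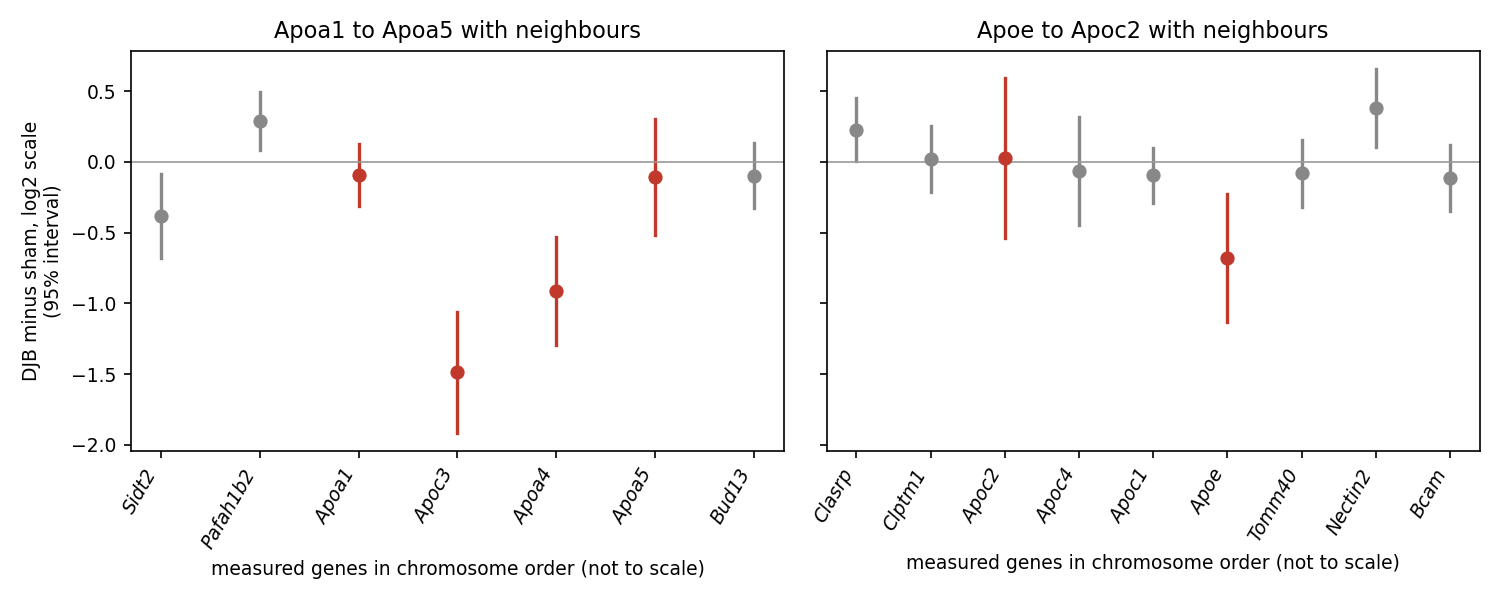
Difference between 3 DJB and 3 sham rats on the log2 scale (y axis, with the 95% interval of the limma fit) for the measured genes of 2 chromosome stretches in their order (x axis, not to scale), the 10 genes followed here in red and other genes in grey. Apoc3 at -1.49 and Apoa4 at -0.91 lie between Apoa1 at -0.09 and Apoa5 at -0.11, and Apoe at -0.68 lies beside Apoc1 at -0.10.

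The start regions of Apoa4 and Apoa5 are shown because these genes share the cluster and their measured differences were unlike in size. The exact permutation p of that contrast was 0.1 (0.14 after adjustment). No start region was found for Apoa1 or Apoc3. Each window runs from 250 bases before to 50 bases after the start in RefSeq (GRCr8), at chr8:55435529-55435828 on the plus strand for Apoa4 and at chr8:55457621-55457920 on the plus strand for Apoa5, for which the table holds a second start. Capitals mark matches, on either strand, to any of 5 motifs searched. They were TATAAA, the usual form of the box that places the start of transcription, and AGGTCA, the half-site that nuclear receptors bind. Another was CAAAGTCCA, a motif preferred by the nuclear receptor HNF4. A further motif was AGATAA, bound by factors of the family that includes Gata4 and Gata6. The last was TGACGT, part of the response element for cyclic AMP.
Apoa4: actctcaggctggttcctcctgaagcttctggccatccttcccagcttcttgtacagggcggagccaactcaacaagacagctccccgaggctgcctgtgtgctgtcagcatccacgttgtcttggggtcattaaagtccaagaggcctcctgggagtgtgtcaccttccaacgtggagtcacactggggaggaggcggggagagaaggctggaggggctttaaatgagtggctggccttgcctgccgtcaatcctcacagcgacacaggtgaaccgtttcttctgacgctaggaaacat
Apoa5: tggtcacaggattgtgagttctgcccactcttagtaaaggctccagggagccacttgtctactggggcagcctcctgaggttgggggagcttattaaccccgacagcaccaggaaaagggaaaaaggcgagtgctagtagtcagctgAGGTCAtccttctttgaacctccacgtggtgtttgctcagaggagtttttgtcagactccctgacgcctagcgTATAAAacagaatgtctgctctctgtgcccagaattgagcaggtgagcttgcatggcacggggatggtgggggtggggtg
The Apoa4 window held none of the 5 motifs letter for letter. The Apoa5 window held TATAAA, found in 14.2% of the 33469 windows of that table, and AGGTCA, found in 16.2% of them. Windows were found for 6 of the 10 genes (also Apoc2, Apoe, Apobec1 and Sar1b), and CAAAGTCCA, found in 0.391% of all windows, was in 0 of their 9 windows. Motif matches describe these letters only.

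Apoe, the ligand for uptake of remnant particles by the liver, and Apoc2, the cofactor that lipoprotein lipase needs, lie in another cluster, on chromosome 1, with Apoc1 and Apoc4 between them. Apoe was measured at 9.69, 9.72 and 8.98 in sham 1 to 3 and at 9.03, 8.69 and 8.62 in DJB 1 to 3. Sham 3 lay inside the DJB range and apart from the other sham rats, so the groups overlapped. The difference was -0.68 ± 0.20 (SE, 95% interval -1.13 to -0.23), which did not pass (limma adjusted p = 0.182). Without sham 3 it was -0.92 (limma adjusted p = 0.0616). Macrophages also make Apoe, and the 10 macrophage markers had a mean level of 7.77 to 7.87 in sham and 7.88 to 8.13 after DJB, and their part in the Apoe result was not tested. In 8 of these 10 the mean was higher after DJB, against 8956 of the 14506 genes tested. Of the 10 markers 0 passed the limma test, while 4 were higher at an unadjusted p under 0.05, as were 9.82% of all genes tested.

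Apoc2 had levels of 9.46, 9.77 and 9.87 in the sham rats and of 10.36, 9.61 and 9.23 in the DJB rats. DJB 1 was the highest and DJB 3 the lowest of all 6 rats. The difference was 0.03 ± 0.25 (SE), and the 95% interval of -0.54 to 0.60 is the widest of the 10. Without DJB 1 the difference was -0.28 (limma adjusted p = 0.529). Between Apoc2 and Apoe, Apoc4 differed by -0.06 ± 0.17 and Apoc1 by -0.10 ± 0.09, both at levels under 6.11, the median of all rows.

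Other genes of the pathway were followed in 6 lists with 87 measured members, of which 2 fell and 1 rose, beside 0.379% and 0.393% of all genes tested. Cd36, the fatty acid receptor of the brush border, and Scarb1, the receptor for high-density lipoprotein, fell, and Nr1h4, the bile acid receptor FXR, rose. Among 9 measured members of the list of other apolipoproteins and lipid transfer proteins, 0 passed the limma test in either direction, 0 had an unadjusted p under 0.05, and the median difference was -0.03. The lowest p values in it were those of Clu (-0.46 ± 0.25), Apod (0.15 ± 0.10) and Apom (-0.16 ± 0.11).

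The list of prechylomicron export held 15 measured genes, of which 11 were lower in the mean, against 38.3% of all genes tested, and 0 passed the limma test (median -0.20). At an unadjusted p under 0.05, 6 were lower (4.45% of all genes) and 1 was higher (9.82% of all genes). Pla2g12b, a catalytically inactive phospholipase relative needed for lipoprotein secretion, lay at 9.51, 9.69 and 9.87 in sham and at 9.21, 8.93 and 9.04 after DJB. Its groups did not overlap. Among the 15 genes that held for 6 with DJB lower (6.56% of all genes) and for 1 with DJB higher (14.5% of all genes). The Pla2g12b difference of -0.63 ± 0.12 (SE) had a limma adjusted p of 0.0641. That value was 0.0364 with each array centred on its median and 0.180 with the replicate number as a block. With 1 array left out it was 0.0697 to 0.207. The COPII cargo adaptor Sec24a differed by -0.38 ± 0.10 (limma adjusted p = 0.145) and Cideb, a lipid droplet protein of lipoprotein lipidation, by -0.43 ± 0.13 (limma adjusted p = 0.194). P4hb, which encodes the protein disulfide isomerase that forms a complex with the transfer protein of Mttp, differed by -0.27 ± 0.10 (limma adjusted p = 0.274) and was chosen after its values were seen.

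Triglyceride supply was described by 18 genes, all measured, of which 15 were lower in the mean, against 38.3% of all genes tested (median -0.19). Of the 18, 1 fell (0.379% of all genes) and 0 rose (0.393% of all genes). Cd36 had levels of 11.10, 10.97 and 11.12 in sham and of 10.37, 10.12 and 9.75 after DJB. It fell by 0.98 ± 0.15 (SE, limma adjusted p = 0.0252), a call that ended without sham 1, sham 2, sham 3 or DJB 2 (limma adjusted p of up to 0.119). Lpcat3, a phospholipid-remodelling enzyme (-0.44 ± 0.11), Dgat1, the last enzyme of triglyceride synthesis (-0.36 ± 0.10), and Acsl5, which activates fatty acids (-0.36 ± 0.10), had groups that did not overlap but did not pass (limma adjusted p of 0.140 to 0.156). Of the 18 genes, groups did not overlap for 7 with DJB lower (6.56% of all genes) and for 2 with DJB higher (14.5% of all genes). At an unadjusted p under 0.05, 6 were lower (4.45% of all genes) and 0 were higher (9.82% of all genes). The acyltransferase gene Mogat2, which starts the resynthesis of triglyceride in the enterocyte, differed by -0.20 ± 0.15 and Dgat2 by -0.34 ± 0.17, both named after their values were seen, and neither passed.

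Partners of APOBEC1 in editing Apob mRNA had 8 measured genes, 0 of which passed the limma test or had an unadjusted p under 0.05, with a median difference of 0.05, against 0.05 for all genes tested. Those of lowest p were Hspa8 (0.15 ± 0.09), Dnajb11 (0.16 ± 0.12) and Syncrip (0.14 ± 0.10). A1cf, the complementation factor of the enzyme, differed by 0.02 ± 0.12, and that sign turned with the arrays centred on their medians or quantile normalised again. Of the 12 measured lipoprotein receptors, lipases and regulators, 1 fell (0.379% of all genes) and 0 rose (0.393% of all genes). In the mean 6 were lower and 6 were higher (median 0.05). At an unadjusted p under 0.05, 2 were lower (4.45% of all genes) and 2 were higher (9.82% of all genes). Scarb1 fell by 0.90 ± 0.11 (SE, limma adjusted p = 0.00986), from levels of 7.85, 7.95 and 8.05 to 7.21, 6.91 and 7.04, a call that ended without sham 3 (limma adjusted p = 0.0545). Cubn, also an ileum marker, differed by -0.92 ± 0.31, the vascular anchor of lipoprotein lipase Gpihbp1 by 0.33 ± 0.13 and hepatic lipase, Lipc, by 0.26 ± 0.11, and none of these 3 passed.

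**Figure D4:**
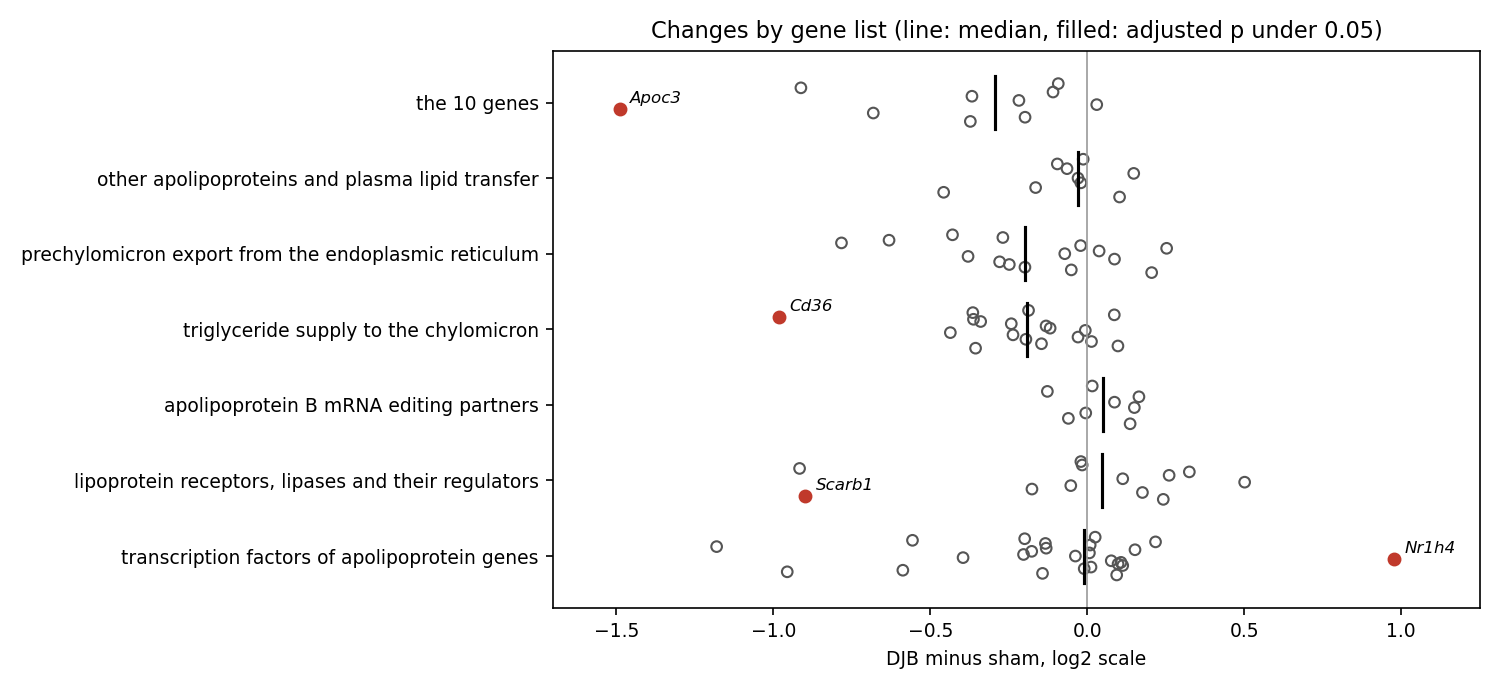
Difference between DJB and sham on the log2 scale (x axis) for every measured gene of the 10 followed here and of 6 pathway lists (y axis), with a line at each median and filled red points for genes past the adjusted threshold. Filled points are Apoc3, Cd36 and Scarb1 on the lower side and Nr1h4 on the higher side.

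The list of regulators of apolipoprotein genes, made of transcription factors and a coactivator, had 25 measured members (median -0.01). Of these, 13 were lower in the mean, against 38.3% of all genes tested, and 12 were higher. Their groups did not overlap for 7 with DJB lower (6.56% of all genes) and for 2 with DJB higher (14.5% of all genes). In limma 1 rose (0.393% of all genes) and 0 fell (0.379% of all genes). At an unadjusted p under 0.05, 5 were lower (4.45% of all genes) and 1 was higher (9.82% of all genes). Nr1h4 rose by 0.98 ± 0.15 (SE, limma adjusted p = 0.0275), from 8.50, 8.48 and 8.56 in sham to 9.35, 9.87 and 9.25 after DJB, a call that ended without sham 1, sham 2 or sham 3 (limma adjusted p of up to 0.113). The gut regional factor Gata4 differed by -1.18 ± 0.23 (limma adjusted p = 0.0643). Its adjusted p in limma was 0.0454 with each array centred on its median and 0.111 with the replicate number as a block. With 1 array left out it was 0.0289 to 0.190. The coactivator gene Ppargc1a differed by -0.96 ± 0.25 (limma adjusted p = 0.152). Creb3l3, which encodes a membrane-bound activator of Apoa4 and of other lipid genes, differed by -0.56 ± 0.16 (limma adjusted p = 0.171). Hnf4a, the nuclear receptor known for driving Apoc3 in the liver, was named after its values were seen and differed by 0.15 ± 0.09 (limma adjusted p = 0.482).

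The genes whose profile over the 6 arrays was most like that of Apoc3 were sought by the mean absolute difference of log2 values centred on each gene's mean. The nearest were Susd2 (0.17), the conjugate export pump gene Abcc2 (0.18), the sodium-glucose cotransporter family gene Slc5a4b (0.19), the sterol exporter gene Abcg8 (0.19) and Cgref1 (0.20). All 5 were lower after DJB, with differences of -1.49 ± 0.21 for Susd2, -1.13 ± 0.27 for Abcc2, -1.81 ± 0.16 for Slc5a4b, -1.72 ± 0.24 for Abcg8 and -1.10 ± 0.18 for Cgref1. Abcc2 did not pass (limma adjusted p = 0.121), and the others did (limma adjusted p of up to 0.0295). The calls of Susd2, Abcg8 and Cgref1 ended with the replicate number as a block (limma adjusted p of 0.0584 to 0.113). Each of these calls also ended without sham 3 and without DJB 2 (limma adjusted p of up to 0.142). These profiles share the 2 groups of rats, so that any gene with a like difference comes near.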

How the data were processed

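Ileum RNA of 3 sham and 3 DJB rats was measured on Affymetrix rat whole-transcript arrays, 1 per rat, and grouped by the sample titles. The authors deposited log2 expression values of 29214 rows, normalised with RMA (version not given), per the submitters' processing notes. RMA corrects background, quantile normalises and summarises probes, which hides shifts shared by most genes and understates changes of dim rows. The genome build was not given in the sources used here. The number of arrays limits the precision.

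Gene symbols came from the platform annotation: 15310 rows carried 1 symbol, 323 several and 13581 none. For genes with several rows the row with the highest mean over the 6 arrays was taken, which left 14506 genes. DJB was compared with sham in limma 3.58.1 (R 4.3.3) by lmFit and eBayes, two-sided, with no covariate or filter, Benjamini-Hochberg adjustment over all genes and a threshold of 0.05. The test was tried on simulated data. Single values used exact permutation tests, whose smallest two-sided p is 0.1. Figures were drawn with matplotlib 3.10.9.

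The 10 genes, the pathway and marker lists and the tests were chosen with earlier results of these data known. From each list the called genes and up to 3 more of lowest p were named, with the 5 profiles nearest to that of Apoc3; genes added later are marked so, and Apoc1 and Apoc4, as neighbours, were also chosen after their values were seen. From a marker list up to 2 genes were named, with Slc40a1 and Cybrd1 in addition. Listed genes with no row of their own symbol were not analysed here. The alternatives tried included a block for the replicate number, repeated quantile normalisation, median centring, dim rows left out, an intensity trend, robust eBayes, array weights, the mean of a gene's rows, every row tested, and each array left out.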

Additional observations from a re-analysis of the deposited data

How the results depend on the processing

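The number of the 10 genes called lower was 1, and it was 0 with the replicate number as a block and 2 with each array centred on its median, with dim rows left out, with an intensity trend or with array weights, where Apoa4 joined Apoc3. The count called lower in the pathway lists, 2, was 1 with the block or with every row tested, 4 with median centring, dim rows left out or array weights, and 8 with the intensity trend, and the count called higher, 1, was 0 with the block or with every row tested. Leaving out 1 array gave 0 to 2 of the 10 genes and 0 to 3 list genes called lower and 0 to 1 list genes called higher, and a median difference over the 10 genes of -0.36 to -0.25. The lowest and highest differences in change with 1 array left out were -0.70 and -0.51 for Apoc3 minus Apoa4, -1.50 and -1.27 for Apoc3 minus Apoa5, -1.54 and -1.30 for Apoc3 minus Apoa1, -0.98 and -0.60 for Apoa4 minus Apoa5, -0.98 and -0.72 for Apoa4 minus Apoa1, -0.12 and 0.15 for Apoa5 minus Apoa1, and -0.30 and -0.05 for Apob minus Mttp. Signs turned for Apoc2 with array weights (-0.023) and for A1cf with repeated quantile normalisation (-0.010), median centring (-0.014) or array weights (-0.022). With 1 array left out, 4 genes named here changed sign, with differences of -0.28 to 0.28 for Apoc2, -0.26 to 0.087 for Apoa5, -0.091 to 0.11 for A1cf and -0.23 to 0.062 for Apoc4. Over all genes, 112 were called, against 50 with the block, 51 with every row tested, 173 with array weights, 225 with dim rows left out, 295 with the intensity trend, and 33 to 108 with 1 array left out. The cause of these changes was not tested.

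The labels number the rats 1 to 3 in both groups, but arrays of the same number did not deviate together (correlations of 0.01, -0.12 and -0.15 over all genes tested), so the number was taken to pair nothing. With it as a block, Apoc3 had an adjusted p of 0.0555, Cd36 0.0637 and Nr1h4 0.0749 in limma.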
